A study of Mus musculus with 32 samples.

Results

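A family of 10 antioxidant defence genes was followed through 3 RNA-seq experiments on the spinal cord of SOD1G93A mice, a model of amyotrophic lateral sclerosis (ALS). Its members are Sod1, Sod2, Cat, Gpx1, Prdx1, Srxn1, Txnrd1, Gclm, Nqo1 and Nfe2l2, chosen by symbol and matched by Ensembl identifier, and all 10 had a row in each count table, out of 74021 genes listed. The first experiment set microglia of WT mice (4 libraries), the resident macrophages of the central nervous system, against SOD1G93A microglia sorted into LAG-3-low and LAG-3-high fractions (5 libraries each). The second followed microglia of SOD1G93A mice with an intact Lag3 gene (LAG-3+/+) or with a germline Lag3tm1Doi disruption (LAG-3-/-), taken at P120 or P140 and giving 4 groups of 3 libraries. The third compared whole lumbar spinal cord of the latter genotypes at P140, again with 3 libraries each. Every group except WT carries the human SOD1G93A transgene of the B6.Cg-Tg(SOD1*G93A)1Gur/J line, driven by the human SOD1 promoter and active in most cell types, so the stage and spinal cord experiments hold no group without it. LAG-3, an inhibitory receptor of the immune system, is missing from all cells of the LAG-3-/- mice. By the study's methods the sorted fractions came from mice at P140, and the age of the WT mice was not given in the sources used here. Microglia were gated as CD11b+/CD45int cells. The study describes the spinal cord libraries as 3 mice per genotype. For the microglial libraries the labels do not say whether those of a group came from separate animals, so their p-values measure the spread between these libraries only.

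The 10 genes cover successive steps in the removal of reactive oxygen. Superoxide dismutases turn superoxide into hydrogen peroxide, which catalase, glutathione peroxidases and peroxiredoxins then remove, the latter enzymes with electrons supplied by glutathione and thioredoxin. Many of these genes are controlled by NRF2, the transcription factor encoded by Nfe2l2, which binds antioxidant response elements, is held back by KEAP1 and is opposed by BACH1. In ALS, dominant mutations of human SOD1 cause disease through a toxic property of the misfolded protein, and microglia are among the cells that shape its course.

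Because the mice carry a human SOD1 gene, the Sod1 row needs a caution that holds for every Sod1 value here. Sod1 (ENSMUSG00000022982, GRCm39, chromosome 16, 90017408 to 90027657, plus strand) encodes the cytosolic copper and zinc superoxide dismutase. The reads were quantified against mouse transcripts, and reads of the human transgene assigned to mouse Sod1 cannot be told apart from reads of the mouse gene in these counts.

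Of the 10 genes, 6 have the core of an antioxidant response element, TGACNNNGC searched on both strands, in a RefSeq promoter window from 250 bases before to 50 bases after an annotated start (GRCm38.p6). Of 12 windows of the members 6 hold a match, as do 12.4% of all 32817 windows of this length, and 3773 of 26994 genes have at least 1 window with a match. The matches are shown because NRF2 control is the feature for which these genes are best known, and capitals mark the matched bases. A match describes letters and not a bound site.
Sod1 chr16:90220698-90220722, plus strand: caaggtggGCGTGGTCAgactcagg
Prdx1 chr4:116685458-116685482, plus strand: gggaaagcGCTGAGTCAtcccccgt
Srxn1 chr2:152105544-152105568, plus strand: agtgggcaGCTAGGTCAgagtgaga
Txnrd1 chr10:82859106-82859130, plus strand: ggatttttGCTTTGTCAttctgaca
Gclm chr3:122245415-122245439, plus strand: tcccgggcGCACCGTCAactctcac
Nfe2l2 chr2:75704887-75704911, minus strand: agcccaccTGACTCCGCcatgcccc
The windows of Sod2, Cat, Gpx1 and Nqo1 held no match to these letters.

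Levels are given as CPM, gene counts scaled to library size with TMM factors. Library totals were 9403290 to 22850400 counts in the sorted fractions, 23981200 to 49512300 in the stage experiment and 19429900 to 26994300 in spinal cord. Lag3, the check of the sort and of the knockout, read 0.506 to 9.97 CPM in WT, 34.7 to 57.7 CPM in LAG-3-low and 146 to 195 CPM in LAG-3-high microglia. In LAG-3+/+ microglia of the stage experiment it read 53.3 to 62.9 CPM at P120 and was lower at P140, at 24.4 to 28.0 CPM. LAG-3-/- microglia read 0.0238 to 0.461 CPM. In spinal cord Lag3 read 43.4 to 74.4 CPM in LAG-3+/+ and 5.50 to 5.71 CPM in LAG-3-/- libraries. Of 8 microglial markers, 7 had more than 3 counts in every sorted and stage library, and the list summed to 27962 to 35013 CPM in WT, 15406 to 22698 CPM in LAG-3-low and 22828 to 24993 CPM in LAG-3-high libraries. A list of 10 neutrophil markers summed to 5949 to 70277 CPM in WT, 22778 to 66225 CPM in LAG-3-low and 3.47 to 9.65 CPM in LAG-3-high libraries, with 9 to 10, all 10 and 2 to 7 of the markers above 3 counts. Markers of monocytes and border macrophages summed to 46.99 to 631 CPM in WT, 259 to 658 CPM in LAG-3-low and 82.2 to 152 CPM in LAG-3-high libraries. The WT libraries were uneven. Replicates 2 and 3 had mean correlations of 0.803 and 0.752 with LAG-3-low and of 0.775 and 0.752 with LAG-3-high libraries. Both were above those with the other WT libraries (0.705 and 0.716). The part of these marker and library differences in the results on the sorted groups was not tested.

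Sod1 separated the 3 sorted groups completely. It read 74.1, 6.17, 9.18 and 29.8 CPM in the WT libraries, 238, 248, 189, 194 and 190.5 CPM in the LAG-3-low libraries and 385, 367, 411, 369 and 354 CPM in the LAG-3-high libraries. The WT libraries were the lowest and the most uneven, while the LAG-3-high libraries were the highest and lay close together. The log2 fold change against WT was 2.83 ± 0.56 (SE, edgeR adjusted p = 0.00465) for LAG-3-low and 3.65 ± 0.58 (SE, edgeR adjusted p = 0.000704) for LAG-3-high microglia, by the quasi-likelihood test of edgeR with Benjamini-Hochberg adjusted p-values. Both comparisons use the same 4 WT libraries, and the transgene is present on one side only. Permuting the log2 CPM values exactly, two-sided, gave an exact permutation p = 0.0159 in each, the smallest value that 5 against 4 libraries allow.

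Between the LAG-3-high and LAG-3-low fractions, which carry the same transgene, the Sod1 values did not overlap and the exact permutation p was 0.00794, the smallest possible for 5 against 5 (0.0159 after Benjamini-Hochberg adjustment over the 3 comparisons). Were the fractions paired by mouse, fewer rearrangements would be allowed and the smallest possible value would be larger. The size of the difference depended on the scaling. Every LAG-3-low library had a TMM factor of at least 1.07, while those of LAG-3-high libraries reached at most 0.915. Without TMM factors the difference in mean log2 CPM of Sod1 was 0.46 instead of 0.84. Its values still did not overlap, at most 279 CPM against at least 304 CPM, and the exact permutation p was again 0.00794. The fit of all 14 libraries, which takes its spread from the uneven WT libraries as well, gave a log2 fold change of 0.83 ± 0.48 (SE, edgeR adjusted p = 0.569), which was not called. Fitted without WT, the log2 fold change of Sod1 was 0.75 (edgeR adjusted p = 0.000355), where 23.7% of all genes were called. The call thus turned on whether WT entered the fit.

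**Figure D1:**
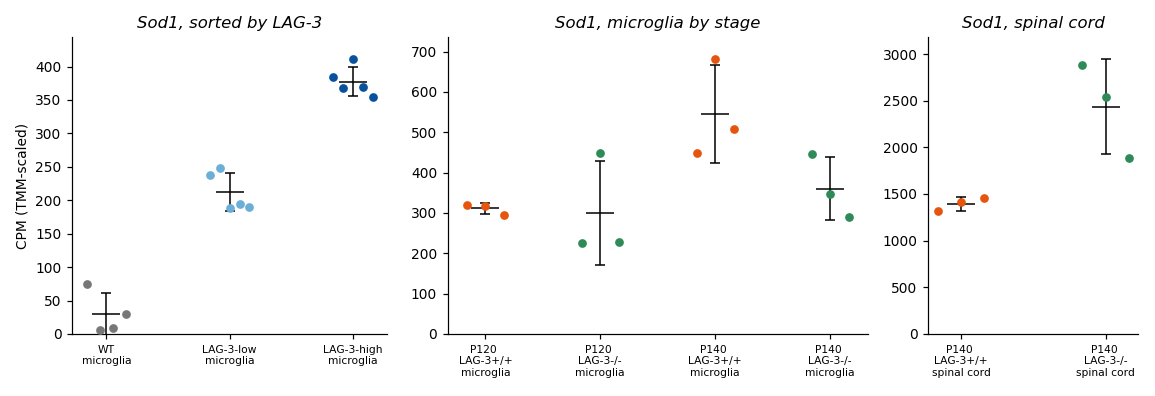
Sod1 in CPM (vertical axes, linear from 0) in each library of the sorted fractions, the stage experiment and spinal cord; points are libraries, and black bars give the mean and SD. WT libraries reach at most 74.1 CPM, LAG-3-high libraries start at 354 CPM, and LAG-3-/- spinal cord (1887 to 2886 CPM) lies above LAG-3+/+ spinal cord (1314 to 1458 CPM).

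Across the family, 4 of the 9 members that passed the filter on low counts rose in LAG-3-low microglia relative to WT, and 0 fell. Of all 16508 genes tested, 24.9% were called in this comparison, 12% as higher and 12.9% as lower. In LAG-3-high microglia 7 of the 9 rose relative to WT and 0 fell, where 30.3% of all genes were called, 13.8% as higher and 16.5% as lower. The median log2 fold change of the 9 members was 0.59 for LAG-3-low and 1.03 for LAG-3-high microglia, beside 0.04 and -0.08 over all genes tested. The 7 calls depended on the scaling. Without TMM factors Sod2, Cat and Nfe2l2 lost theirs and Gpx1 was called as lower, beside a median of -0.39 over all genes. Sod2 and Cat also lost theirs with a correction for length and GC content, and at an adjusted p under 0.05. Nqo1, a quinone reductase and a standard target of NRF2 (ENSMUSG00000003849, chromosome 8, 108113835 to 108129934, minus strand), did not pass the filter.

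Among the genes that remove peroxide, Prdx1 followed the same order as Sod1. Prdx1 (ENSMUSG00000028691, chromosome 4, 116532123 to 116558398, plus strand) encodes a cytosolic peroxiredoxin, and its reads may be split with the processed pseudogene Prdx1-ps. It read 265, 147, 229 and 169 CPM in WT, 568, 399, 291, 614 and 347 CPM in LAG-3-low and 988, 897, 894, 819 and 830.2 CPM in LAG-3-high microglia. No pair of groups overlapped. Its log2 fold change against WT was 1.13 ± 0.24 (SE, edgeR adjusted p = 0.00648) for LAG-3-low and 2.13 ± 0.25 (SE, edgeR adjusted p = 6.21e-05) for LAG-3-high microglia. Prdx1 was also the single member called between the fractions, at 0.99 ± 0.22 (SE, edgeR adjusted p = 0.0226), where 4.39% of all genes were called, 1.59% as higher in LAG-3-high and 2.8% as lower. Without TMM factors this log2 fold change was 0.60 and lost its call (edgeR adjusted p = 0.235), beside a median of -0.40 over all genes.

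Srxn1 (ENSMUSG00000032802, chromosome 2, 151947436 to 151957687, plus strand) encodes sulfiredoxin, which reactivates peroxiredoxins that peroxide has overoxidized. It was nearly absent from WT microglia, with 2 counts in 1 library and 0 in the others. It read 47.3, 12.7, 9.36, 38.6 and 3.61 CPM in LAG-3-low and 25.5, 37.3, 6.95, 52.2 and 11.8 CPM in LAG-3-high microglia, so every SOD1G93A library was above every WT library while the fractions overlapped. Over pooled counts it was 722-fold higher in LAG-3-low microglia (95% exact interval 199.5 to 5962) and 850.3-fold higher in LAG-3-high microglia (235 to 7026) relative to WT, intervals that cover counting error only. Both differences were called (edgeR adjusted p = 0.000539 and 0.000250).

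Catalase and glutathione peroxidase 1 behaved otherwise. Cat (ENSMUSG00000027187, chromosome 2, 103284194 to 103316185, minus strand) encodes the peroxisomal enzyme that splits hydrogen peroxide. It read 76.3, 78.7, 85.5 and 45.6 CPM in WT, 72.8, 83.4, 67.5, 56.3 and 68.99 CPM in LAG-3-low and 116, 94.4, 117, 96.95 and 118 CPM in LAG-3-high microglia. Without TMM factors the groups overlapped, with up to 96.2 CPM in WT and 89.6 CPM in LAG-3-low, against LAG-3-high values from 80.5 CPM. With these factors the LAG-3-high libraries lay above all others. Against WT their log2 fold change was 0.60 ± 0.22 (SE, edgeR adjusted p = 0.0639), a call that was lost in 3 of the 9 fits that left out 1 library (adjusted p up to 0.123), without TMM factors (0.27, edgeR adjusted p = 0.472), without the filter, with a correction for length and GC content (0.37) and with only these groups in the fit. Against LAG-3-low it was 0.64 ± 0.20 (SE, edgeR adjusted p = 0.140) with all 14 libraries and was not called. Leaving WT out of the fit gave 0.56 (edgeR adjusted p = 0.00873).

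Gpx1 (ENSMUSG00000063856, chromosome 9, 108216102 to 108217546, plus strand) encodes the main cytosolic glutathione peroxidase. It read 753, 437, 498 and 1381 CPM in WT, 443 to 680.3 CPM in LAG-3-low and 448 to 563 CPM in LAG-3-high microglia. The groups overlapped and no difference was called, although without TMM factors its log2 fold change of -0.84 between LAG-3-high and WT was (edgeR adjusted p = 0.0138). Levels per kilobase were divided by the mean length of a gene's annotated protein-coding transcripts. That length was 931 bases for Gpx1, 2222 for Prdx1 and 4149 for Sod1. The order of the members thus depends on which transcripts the cells use, which was not examined. By this divisor Gpx1 had the highest level of the 10 genes in every microglial group, at 824 CPM per kilobase in WT and 532 in LAG-3-high microglia. On that scale Prdx1 stood at 91.1 and 398, and Sod1 ranked 6 of 10 in WT (7.19) and 4 of 10 in each SOD1G93A microglial group (90.9 in LAG-3-high). With the union of exons as length, Sod1 ranked 5 in WT.

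Among Txnrd1, Sod2 and Gclm, Txnrd1 differed most clearly from WT. Txnrd1 (ENSMUSG00000020250, chromosome 10, 82669785 to 82733546, plus strand) encodes thioredoxin reductase 1, which keeps thioredoxin reduced. It read 4.01, 23.1, 19.7 and 8.28 CPM in WT, 47.8, 51.8, 42.4, 48.5 and 26.8 CPM in LAG-3-low and 62.6, 48.1, 50.5, 62.1 and 68.8 CPM in LAG-3-high microglia. Both fractions lay above WT and overlapped each other. The log2 fold change was 1.66 ± 0.44 (SE, edgeR adjusted p = 0.0204) for LAG-3-low and 2.08 ± 0.45 (SE, edgeR adjusted p = 0.00520) for LAG-3-high microglia. With only LAG-3-low and WT libraries in the fit, the former was 1.71 and just missed the threshold (edgeR adjusted p = 0.1003).

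Sod2 (ENSMUSG00000006818, chromosome 17, 13224095 to 13259591, plus strand) encodes the mitochondrial manganese superoxide dismutase. It read 45.9, 21.3, 36.4 and 15.7 CPM in WT, 29.6 to 44.97 CPM in LAG-3-low and 42.5 to 69.3 CPM in LAG-3-high microglia. Although the groups overlapped, it was called between LAG-3-high and WT at a log2 fold change of 0.91 ± 0.33 (SE, edgeR adjusted p = 0.0597). Without TMM factors the value was 0.60 and was not called (edgeR adjusted p = 0.217). The call was also lost without the filter, with the length and GC correction (0.40) and with only these groups in the fit, and 3 of the 9 fits that left out 1 library lost it, with adjusted p up to 0.130.

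Gclm (ENSMUSG00000028124, chromosome 3, 122039126 to 122065061, plus strand) encodes the modifier subunit of glutamate-cysteine ligase, the first enzyme of glutathione synthesis. Its 4 WT libraries ranged from 6.35 to 48.1 CPM and held all LAG-3-low (19.7 to 39.3 CPM) and LAG-3-high values (21.7 to 35.7 CPM) within that range, and no difference was called. For Nqo1, 23 of the 26 microglial libraries of both experiments had 0 counts, which allows up to 0.0555 to 0.261 CPM depending on the depth of the library. The highest value was 2.49 CPM in LAG-3-low replicate 3.

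Nfe2l2 itself (ENSMUSG00000015839, chromosome 2, 75504739 to 75534985, minus strand) read 101, 358, 313 and 204 CPM in WT, 279, 297, 284, 241 and 329.96 CPM in LAG-3-low and 531, 576, 474, 431 and 478 CPM in LAG-3-high microglia. Without TMM factors WT replicate 2 read 438 CPM, within the LAG-3-high values of 394 to 491 CPM. With these factors the LAG-3-high libraries lay above all the others. Their log2 fold change against WT was 1.03 ± 0.28 (SE, edgeR adjusted p = 0.0192), and 0.68 without TMM factors, where it was not called (edgeR adjusted p = 0.128). Between the fractions the log2 fold change of Nfe2l2 was 0.80 ± 0.26 (SE, edgeR adjusted p = 0.146), and 0.72 with an adjusted p of 0.000301 when WT was left out of the edgeR fit.

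**Figure D2:**
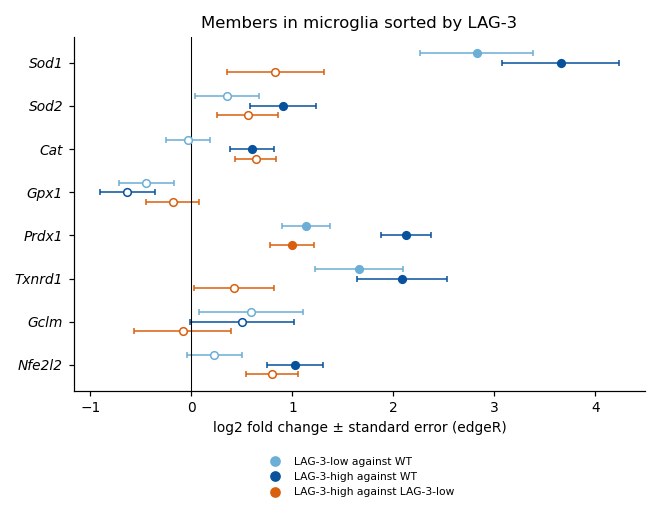
Log2 fold change (horizontal axis) with its standard error for 8 members in the 3 comparisons of sorted microglia; filled points passed an adjusted p of 0.1 and open points did not. Srxn1, nearly absent from WT, and Nqo1, which did not pass the filter, are not drawn. Sod1, Prdx1 and Txnrd1 are filled against WT in both fractions, and Prdx1 alone is filled between the fractions.

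A wider list of 69 antioxidant genes did not move in one direction. Of its 61 genes tested, 12 were higher and 13 lower in LAG-3-low microglia relative to WT, with a median log2 fold change of 0.00, and in LAG-3-high microglia 9 were higher and 14 lower, with a median of 0.37. Hmox1, which encodes the heme oxygenase induced by NRF2, read 0.696 to 11.1 CPM in WT, 41.01 to 101 CPM in LAG-3-low and 91.5 to 118 CPM in LAG-3-high microglia. It rose against WT in both fractions, by 3.31 and 4.13 as log2 fold changes (edgeR adjusted p = 0.00226 and 0.000345). Bach1, which encodes the repressor that competes with NRF2, fell by 2.96 in LAG-3-low and fell by 3.27 in LAG-3-high microglia (edgeR adjusted p = 0.00950 and 0.00440). Its WT libraries ranged widely, from 16.6 to 214 CPM, against 6.19 to 16.01 CPM in LAG-3-low and 2.62 to 12.04 CPM in LAG-3-high microglia.

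Of the 9 thioredoxin and glutaredoxin genes of the wider list 0 were higher and 3 lower against WT in each fraction, and of 14 tested genes of glutathione supply and use 3 were higher and 2 lower in the LAG-3-low fraction and 2 were higher and 5 lower in the LAG-3-high fraction. Of all genes, 24.9% were called in the LAG-3-low and 30.3% in the LAG-3-high comparison. Whether these short lists differ from those shares was not tested. Slc7a11, the cystine carrier that feeds glutathione synthesis, rose by 4.14 in LAG-3-low and by 2.82 in LAG-3-high microglia (edgeR adjusted p = 0.0135 and 0.0459), although its groups overlapped. Gclc, the catalytic partner of Gclm, fell by 1.48 in LAG-3-low and fell by 1.45 in LAG-3-high microglia (edgeR adjusted p = 0.0612 and 0.0567), also with overlap. Txnip, which inhibits thioredoxin, fell by 1.36 in LAG-3-low and fell by 1.89 in LAG-3-high microglia without overlap (edgeR adjusted p = 0.00288 and 0.000148), and Txn1, thioredoxin itself, fell by 1.13 in LAG-3-high microglia (edgeR adjusted p = 0.0530). Keap1 and Ccs, the copper chaperone of SOD1, were not called in either fraction. Mafg, a partner protein of NRF2, was higher in LAG-3-low microglia at a log2 fold change of 1.09 ± 0.24 (SE, edgeR adjusted p = 0.00759), and Selenow, a small selenoprotein, in LAG-3-high microglia at 2.70 ± 0.40 (SE, edgeR adjusted p = 0.000365). Msrb2, a mitochondrial methionine sulfoxide reductase, was lower in LAG-3-low microglia (edgeR adjusted p = 0.00244). After a correction for length and GC content Mafg was at 0.13 and was not called (edgeR adjusted p = 0.744).

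Between the fractions 2 genes of the wider list were higher in LAG-3-high and 5 lower, out of 61 tested. Of all genes, 1.59% were called as higher and 2.8% as lower. Ucp2, a mitochondrial carrier, had a log2 fold change of 1.10 ± 0.24 (SE, edgeR adjusted p = 0.0185) and Sqstm1, which binds KEAP1, of 0.73 ± 0.21 (SE, edgeR adjusted p = 0.0850). Without TMM factors neither was called, at 0.73 and 0.35 (edgeR adjusted p = 0.175 and 0.572), and Sqstm1 also lost its call in all 10 fits that left out 1 library (adjusted p up to 0.215). The lower genes were led by the microsomal glutathione transferases Mgst2, from 30.9 to 69.3 CPM in LAG-3-low to 0 to 0.141 CPM in LAG-3-high libraries, and Mgst1, from 74.4 to 223 CPM in the former to 2.33 to 10.3 CPM in the latter. Both were also expressed in WT, at 10.4 to 76.1 and 29.1 to 158 CPM. The summed neutrophil markers moved with them, at 22778 to 66225 CPM in LAG-3-low and 3.47 to 9.65 CPM in LAG-3-high libraries.

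The genes whose log2 CPM was most like that of Sod1 over the 14 sorted libraries were St14 (Pearson r = 0.972), Gpr137b-ps (r = 0.966) and Dgkz (r = 0.963), among 8907 genes of at least 10 CPM on average. Over the 12 stage libraries they were Ftl1-ps1 (r = 0.972), Rps14 (r = 0.964) and S100a1 (r = 0.963), among 8672 genes. The sets have no gene in common. These correlations describe libraries that share group differences and scaling, and Gpr137b-ps and Ftl1-ps1 are named as pseudogenes, whose reads may be split with near-identical genes.

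The stage experiment asked how microglia of each genotype change between P120 and P140. In LAG-3+/+ microglia 5 of the 9 members tested rose by P140 and 1 fell, where 27.4% of 18669 genes were called, 11.9% as higher and 15.5% as lower. The median log2 fold change of the members was 0.73, and that of all genes tested was -0.22. The libraries themselves differed with stage, with 24136 to 24942 genes detected and TMM factors of 1.06 to 1.16 at P120, against 18896 to 20489 genes and factors of 0.734 to 0.855 at P140, and the part of this in the differences was not tested. Gpx1 and Prdx1 changed most clearly. Gpx1 rose from 352, 273 and 367 CPM at P120 to 611, 1069 and 847 CPM at P140, a log2 fold change of 1.35 ± 0.28 (SE, edgeR adjusted p = 0.0101). Prdx1 rose from 559.9, 537 and 422 CPM to 1013, 1660.1 and 1109 CPM, by 1.32 ± 0.25 (SE, edgeR adjusted p = 0.00792). Neither gene overlapped between the stages, and both calls held without TMM factors and with each library left out.

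Sod1, Nfe2l2 and Srxn1 also rose, with less margin. Sod1 read 320.3, 318 and 296 CPM at P120 and 448, 681 and 508 CPM at P140, a log2 fold change of 0.81 ± 0.28 (SE, edgeR adjusted p = 0.0681). Nfe2l2 read 323, 285 and 306 CPM against 382, 506 and 628 CPM, a difference of 0.73 ± 0.22 (SE, edgeR adjusted p = 0.0410). Srxn1 read 14.8, 9.69 and 3.73 CPM against 27.6, 37.9 and 37.5 CPM, a difference of 1.86 ± 0.56 (SE, edgeR adjusted p = 0.0389). In each of these genes the P140 libraries lay above the P120 libraries. For Nfe2l2 this held only with TMM factors, since without them P140 replicate 1 read 326 CPM, within the P120 values of 311 to 355 CPM. Without TMM factors the log2 fold changes of Sod1, Nfe2l2 and Srxn1 were 0.31, 0.23 and 1.39, beside a median of -0.70 over all genes. None of these was called (edgeR adjusted p = 0.356, 0.367 and 0.119). With single libraries left out, Sod1 lost its call in 5 of 6 fits (adjusted p up to 0.212), Nfe2l2 in 3 (up to 0.157) and Srxn1 in 2 (up to 0.113).

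Txnrd1 went the other way. It fell from 55.9, 36.7 and 36.1 CPM to 18.2, 14.4 and 13.4 CPM, a log2 fold change of -1.49 ± 0.42 (SE, edgeR adjusted p = 0.0309). Corrected for length and GC content, the value was -0.76 and was not called (edgeR adjusted p = 0.178), beside a median over all genes of 0.38, and without P120 LAG-3+/+ replicate 1 its edgeR adjusted p was 0.111. Gclm read 24.3, 29.2 and 23.6 CPM at P120 and 8.13, 8.75 and 0.538 CPM at P140. Its stages did not overlap, but the log2 fold change of -2.15 ± 0.93 (SE, edgeR adjusted p = 0.131) was not called. Sod2 and Cat overlapped between the stages and were not called, and Nqo1 had 0 counts in all 12 libraries. The summed neutrophil markers were 1741 to 2574 CPM at P120 and 3.84 to 3479 CPM at P140 in LAG-3+/+ microglia, and their part in these differences was not tested.

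**Figure D3:**
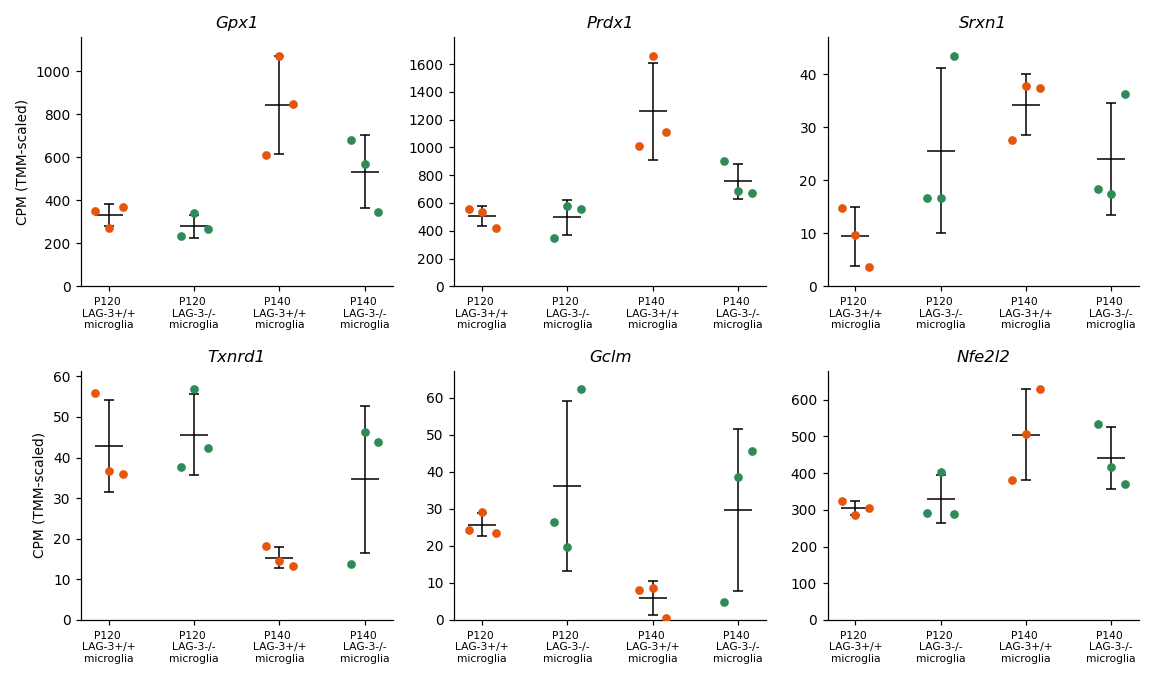
CPM (vertical axes, linear from 0) of 6 members in each microglial library of the stage experiment; points are libraries and black bars the mean and SD of 3. In LAG-3+/+ microglia Gpx1, Prdx1, Srxn1 and Nfe2l2 are higher at P140 and Txnrd1 is lower; in the P140 LAG-3-/- group replicate 1 lies apart from the other libraries for Txnrd1 (13.8 CPM) and Gclm (4.85 CPM).

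Of the 66 genes of the wider list tested, 26 were higher and 5 lower at P140 in LAG-3+/+ microglia, with a median log2 fold change of 0.82. Of all genes tested, 11.9% were called as higher and 15.5% as lower, with a median of -0.22. Ephx1, the microsomal epoxide hydrolase, rose from 42.5 to 66.7 CPM to 180.4 to 204 CPM, by 1.83 ± 0.27 (SE, edgeR adjusted p = 0.00529). Park7, which encodes the redox-sensitive protein DJ-1, rose by 1.29 ± 0.23 (SE, edgeR adjusted p = 0.00636). Txn1 rose by 1.22 and Hmox1 by 1.17 (edgeR adjusted p = 0.0130 and 0.0355). Abcc1, an exporter of glutathione conjugates, fell by 2.98 (edgeR adjusted p = 0.00722), Msrb1, a methionine sulfoxide reductase, fell by 2.57 (edgeR adjusted p = 0.0132) and Gclc fell by 2.42 (edgeR adjusted p = 0.0587).

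In LAG-3-/- microglia no member was called between P120 and P140, and 0% of all genes tested were. The median log2 fold change of the members was 0.14, beside -0.03 over all genes. Of the 66 genes of the wider list tested, 0 were called, but 55 had a log2 fold change above 0 and the median was 0.65. By edgeR 2 members had an unadjusted p under 0.05, and DESeq2 called 1 member, Gpx1, and 2.76% of all genes. Gpx1 read 235, 339 and 266 CPM at P120 and 679, 570.03 and 347 CPM at P140, which did not overlap, with a log2 fold change of 0.93 ± 0.28 (SE, edgeR adjusted p = 0.475). Prdx1 read 352, 577 and 559 CPM against 903, 687 and 675 CPM, a difference of 0.61 ± 0.25 (SE, edgeR adjusted p = 0.535). Sod1 read 225, 448 and 228 CPM against 445, 346 and 289.8 CPM, which overlapped. Whether the stage difference depended on genotype was tested by the interaction term, which called no member (1 at an unadjusted p under 0.05 and 1 by DESeq2, both times Srxn1, where DESeq2 called 8% of all genes) and 0.171% of all genes, 0.161% as higher and 0.0107% as lower. The interaction of Srxn1 was -1.95 ± 0.77 (SE, edgeR adjusted p = 0.309).

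At P140, edgeR called no member between LAG-3-/- and LAG-3+/+ microglia and 10.2% of all genes, 7.22% as higher and 3% as lower. By edgeR 4 members had an unadjusted p under 0.05, and DESeq2 called 4 members and 25.8% of all genes. Txnrd1 read 13.8, 46.4 and 43.8 CPM in LAG-3-/- against 18.2, 14.4 and 13.4 CPM in LAG-3+/+ libraries. Gclm read 4.85, 38.5 and 45.7 CPM against 8.13, 8.75 and 0.538 CPM. In both genes LAG-3-/- replicate 1 lay with the LAG-3+/+ libraries and the other two lay above. That library detected 20260 genes, against 23459 and 23896 in the others of its group, and its Lag3 level of 0.158 CPM matched its label. Its mean correlation was 0.863 with the P140 LAG-3+/+ libraries and 0.860 with its own group, while replicates 2 and 3 correlated more with the P120 LAG-3+/+ libraries (0.903 and 0.8998) than with their own group (0.883 and 0.875).

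Without LAG-3-/- replicate 1, 4 of the 9 members were called between the genotypes at P140, where 20.2% of all genes were called. Their log2 fold changes were then 1.56 for Txnrd1, 2.87 for Gclm, -0.88 for Prdx1 and -0.87 for Gpx1. Because this library stood out in Txnrd1 and Gclm themselves, its omission is no test of those genes. With all libraries Prdx1 read 903, 687 and 675 CPM in LAG-3-/- and 1013, 1660.1 and 1109 CPM in LAG-3+/+ microglia, which did not overlap, at a log2 fold change of -0.74 ± 0.25 (SE, edgeR adjusted p = 0.109). Sod1, at 445, 346 and 289.8 against 448, 681 and 508 CPM, did not overlap either and was at -0.60 ± 0.28 (SE, edgeR adjusted p = 0.222). The remaining LAG-3-/- libraries carried neutrophil marker sums of 846 and 4610 CPM, against 4.02 CPM in replicate 1 and 3.84 to 3479 CPM in LAG-3+/+ microglia at P140, and their part in these values was not tested.

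In the wider list 3 genes were higher and 4 lower in LAG-3-/- microglia at P140, out of 66. As a total this is similar to the share of all genes called, 10.2%, but of all genes more were higher (7.22%) than lower (3%). The median log2 fold change was -0.46 in the wider list and -0.34 in the members, beside 0.14 over all genes. Whether the lists differ from all genes was not tested. Abcc1 and Msrb1 were higher by 2.32 and 2.30 (edgeR adjusted p = 0.0431 and 0.0528), and Ephx1 fell by 1.27 (edgeR adjusted p = 0.0346). Park7 was lower as well, at 77.7 to 134 against 167 to 242 CPM (edgeR adjusted p = 0.0397). With only the groups compared in the fit none of these 4 was called (edgeR adjusted p = 0.207 to 0.280), and leaving out single libraries ended the call of Abcc1 in 3, of Msrb1 in 4, of Ephx1 in 2 and of Park7 in 3 of 6 fits. Abcc1 was also not called with the length and GC correction (1.20, edgeR adjusted p = 0.213). These 4 genes also led the change between stages in LAG-3+/+ microglia, and the same P140 LAG-3+/+ libraries enter both comparisons. At P120 no member was called between the genotypes (1 at an unadjusted p under 0.05, 0 by DESeq2), where edgeR called 0.0107% of all genes. Srxn1 had the low unadjusted p, with 16.6, 16.7 and 43.5 CPM in LAG-3-/- against 14.8, 9.69 and 3.73 CPM in LAG-3+/+ libraries, which did not overlap, at a log2 fold change of 1.44 ± 0.55 (SE, edgeR adjusted p = 1). The summed neutrophil markers at P120 were 2.68 to 6.57 CPM in LAG-3-/- against 1741 to 2574 CPM in LAG-3+/+ microglia.

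In whole lumbar spinal cord at P140 members were called in both directions, at a share similar to that of all genes. Of the 10 members, all of which passed the filter, 2 were higher and 3 lower in LAG-3-/- tissue, where 47.1% of 17702 genes were called, 23.1% as higher and 23.9% as lower. In tissue, fewer cells of a type and less RNA per cell cannot be told apart. Marker sums of the glia moved as well, oligodendrocyte markers from 15960 to 17460 CPM in LAG-3+/+ to 22678 to 31941 CPM in LAG-3-/- cord, astrocyte markers from 12759 to 14592 CPM down to 7385 to 11933 CPM and microglial markers from 1102 to 1385 CPM down to 787 to 1076 CPM. Their part in the differences between the genotypes was not tested.

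Sod1 was the most abundant member of the family in cord per kilobase, at 337 CPM per kilobase in LAG-3+/+ and 587 in LAG-3-/- tissue. It read 1314, 1419 and 1458 CPM in LAG-3+/+ and 2886, 2538 and 1887 CPM in LAG-3-/- cord. All LAG-3-/- libraries lay above the LAG-3+/+ libraries, at a log2 fold change of 0.80 ± 0.17 (SE, edgeR adjusted p = 0.00380). Both groups carry the transgene, and the counts do not say which gene the additional reads came from. Ccs, the copper chaperone that loads SOD1, rose from 12.5 to 13.7 CPM to 20.2 to 26.9 CPM, by 0.91 ± 0.13 (SE, edgeR adjusted p = 0.000605).

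Gpx1 read 147, 114 and 96.3 CPM in LAG-3-/- and 76.8, 78.4 and 103 CPM in LAG-3+/+ cord and was called although the genotypes overlapped, at a log2 fold change of 0.47 ± 0.17 (SE, edgeR adjusted p = 0.0465). Nfe2l2 was lower, at 46.6, 42.8 and 39.5 CPM against 64.9, 58.9 and 71.8 CPM, a difference of -0.60 ± 0.11 (SE, edgeR adjusted p = 0.00180). Txnrd1 read 81.6, 74.7 and 81.3 CPM against 99.1, 103 and 104 CPM, a difference of -0.37 ± 0.10 (SE, edgeR adjusted p = 0.0107). Gclm read 82.7, 83.9 and 77.6 CPM against 87.03, 109 and 107 CPM, a difference of -0.31 ± 0.11 (SE, edgeR adjusted p = 0.0462). For Nfe2l2, Txnrd1 and Gclm the LAG-3-/- libraries lay entirely below the LAG-3+/+ libraries. With a correction for length and GC content Sod1 and Nfe2l2 were still called, while Gpx1 (0.11), Txnrd1 (-0.20) and Gclm (-0.08) were not (edgeR adjusted p = 0.699, 0.262 and 0.721). Leaving out single libraries ended the call of Gpx1 in 3 of 6 fits and that of Gclm in 2, with adjusted p up to 0.158 and 0.172.

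Sod2, Cat, Prdx1, Nqo1 and Srxn1 overlapped between the genotypes and were not called. Nqo1, absent from nearly all microglial libraries, read 12.9 to 18.5 CPM in cord. Srxn1 read 122, 119.9 and 123 CPM in LAG-3-/- and 115, 127 and 134 CPM in LAG-3+/+ cord.

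**Figure D4:**
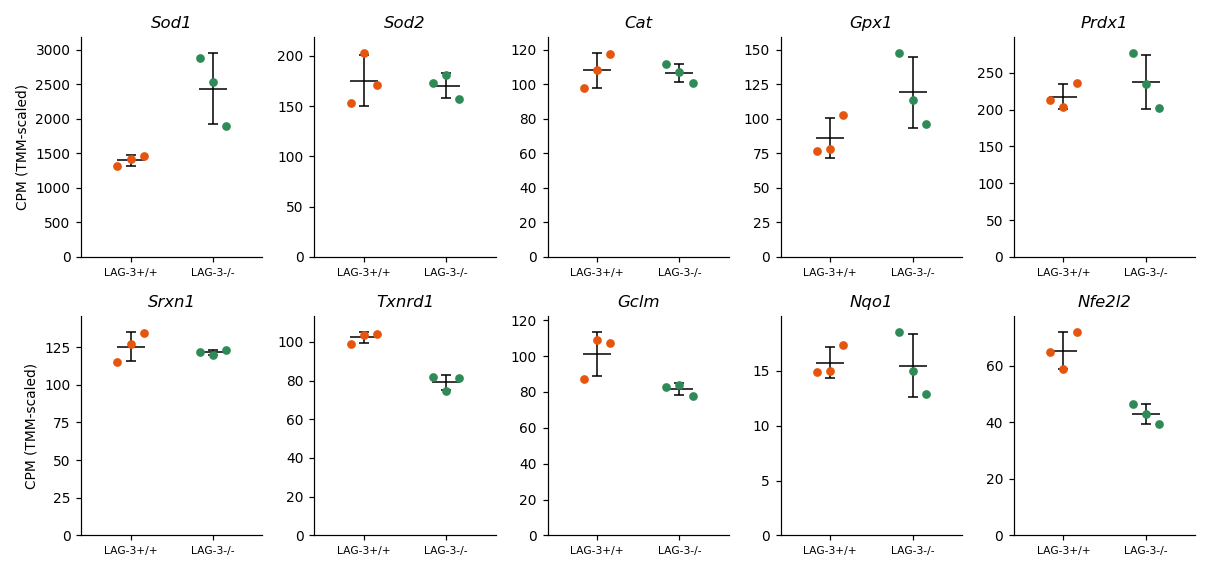
CPM (vertical axes, linear from 0) of the 10 members in each spinal cord library at P140; points are libraries and black bars the mean and SD of 3. Sod1 is higher and Txnrd1, Gclm and Nfe2l2 are lower in LAG-3-/- tissue without overlap, and Sod2, Cat, Prdx1, Srxn1 and Nqo1 overlap.

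Of the 68 genes of the wider list tested in cord, 35 were higher and 12 lower, with a median log2 fold change of 0.30 beside 0.00 over all genes. Of all genes, 23.1% were called as higher and 23.9% as lower. Glrx5, a mitochondrial glutaredoxin, rose by 1.17 ± 0.12 (SE, edgeR adjusted p = 0.000199), and Prdx5, a peroxiredoxin of several compartments, by 1.13 ± 0.13 (SE, edgeR adjusted p = 0.000282). Txn1 rose by 0.65 and Keap1 by 0.32 (edgeR adjusted p = 0.00236 and 0.0298). The repressors Bach1 and Bach2 fell by 0.76 and fell by 0.75 (edgeR adjusted p = 0.000551 and 0.00146). With the length and GC correction Bach2 was at -0.10 and was not called (edgeR adjusted p = 0.705). Gclc fell by 0.43, Slc7a11 fell by 0.67 and Hmox1 fell by 0.81 (edgeR adjusted p = 0.00434, 0.00794 and 0.0417).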

How the data were processed

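The members and gene lists were chosen with earlier results of these data known. RNA from 32 libraries was sequenced on an Illumina NovaSeq X Plus, after the SMART-seq mRNA HT LP kit (microglia) or the NEBNext Ultra II Directional kit (spinal cord). The authors trimmed reads with Trim Galore 0.6.7, quantified them with Salmon 1.9.0 against mouse transcripts of GRCm39 (annotation release not given in the sources used here) and deposited tximport's estimated counts per gene (R 4.2.1), neither whole nor normalized. These were rounded to whole numbers. Symbols and coordinates come from GENCODE vM39, promoters from RefSeq (GRCm38.p6).

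Each table was fitted in edgeR 4.0.16 (R 4.3.3) with filterByExpr (minimum count 10, total 15), TMM factors, and the robust quasi-likelihood test of all libraries of the table. Benjamini-Hochberg adjustment covered the 16508, 18669 and 17702 genes tested, and an adjusted p under 0.1 was called. Log2 CPM used a prior count of 2 in the two-sided exact permutation tests (scipy 1.17.1) and in the correlations with Sod1. Floors were 3 counts. The 3 tables were normalized separately. Groups follow the labels, and no library was left out.

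All 10 members and Lag3 are named, with up to 2 genes of the wider list per direction and comparison (smallest adjusted p) and the partners Ccs, Keap1, Bach1, Gclc, Hmox1, Txn1, Txnip and Slc7a11. Gpr137b-ps, St14, Dgkz, Ftl1-ps1, Rps14 and S100a1 are the 3 genes most like Sod1 in each microglial table. Alternatives were RLE size factors, no TMM factors, DESeq2 1.42.0, filtering on a mean count of 10 or not at all, length and GC correction, the replicate number as a block, the listed sex, fitting the compared groups alone, stricter thresholds, a prior count of 0.5, the union of exons as gene length, and each library left out.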

Additional observations from a re-analysis of the deposited data

Results flagged for a closer look

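Nqo1 in LAG-3-low replicate 3 stood apart from its group at 2.49 CPM (61 counts), against 0 to 0.458 CPM in the other 4 libraries. Of 27 sets examined, each 1 member in 1 of the sorted groups of 4 or 5 libraries, 1 was set apart in this way, and chance does so in about 1 of 20 sets.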

How the results depend on the processing

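The number of members called between the sorted fractions, 1 as reported, was 0 without TMM factors, 2 with DESeq2, 3 with the correction for length and GC content and 5 with only the groups compared, where 4.71%, 8.35%, 8.6% and 23.7% of all genes were called, and 0 when a log2 fold change of at least 1 was also required. In cord the 5 calls became 3 with the length and GC correction (29.4% of all genes called) and 0 with that minimum. Where the main fit called 0 members, DESeq2 called 1 for the stages in LAG-3-/- microglia, 4 for the genotypes at P140 and 1 for the interaction (2.76%, 25.8% and 8% of all genes), and the genotypes at P140 gave 1 with RLE size factors (Prdx1) and 1 without TMM factors (Txnrd1), which called 11.3% and 12.3% of all genes. In that comparison edgeR called 1908 of all genes in the fit of 12 libraries and 0 when only the groups compared entered. With each library left out in turn, the numbers of members called ranged from 4 to 5 (LAG-3-low against WT), 5 to 8 (LAG-3-high against WT), 1 to 1 (between the fractions), 3 to 6 (stages in LAG-3+/+; 3 without P120 LAG-3+/+ replicate 2 or 3), 0 to 0 (stages in LAG-3-/- and genotypes at P120), 0 to 4 (genotypes at P140; 1 without P140 LAG-3+/+ replicate 1, 4 without LAG-3-/- replicate 1), 0 to 1 (interaction; Txnrd1 without P140 LAG-3-/- replicate 1, where 8.35% of all genes were called) and 3 to 5 (cord; 3 without LAG-3+/+ replicate 2). Sod1 between the fractions was called at 0.75 with only the groups compared. Srxn1 in cord, at -0.04 and not called, reversed to 0.50 and was called with the length and GC correction (edgeR adjusted p = 0.0194), and ranged from -0.11 to 0.0047 with single libraries left out. A tally of settings covered member comparisons with a call or an edgeR unadjusted p under 0.05. It also held Sod1 between the fractions, the Txnrd1 interaction and Srxn1 in cord. In this selection 359 values under other settings kept direction and side of the threshold, 33 lost and 17 gained a call, and 1 reversed. In the other 47 member comparisons, 28 of 476 values under other settings changed direction and 3 passed the test. Between the fractions, 36.1% of all calls were higher, against 9.51% without TMM factors and 68.5% with the length and GC correction. For the stages in LAG-3+/+ these shares were 43.4%, 19.1% and 75.6%, for the genotypes at P140 70.6%, 89.4% and 36.5%, and in cord 49.2%, 35.5% and 74.3%. Libraries of the same replicate number shared little deviation from their group means (mean correlation 0.0140 sorted, -0.00325 stage, 0.000956 cord). This cannot tell whether libraries of different groups came from the same mice. With the replicate number as a block the numbers of members called were 4 and 5 (LAG-3-low and LAG-3-high against WT), 1 (fractions), 6 (stages in LAG-3+/+), 5 (cord) and 0 (all others). The cause of these changes was not tested.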
